A study of Mus musculus with 6 samples.

Results

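The cytosolic ribosomal protein genes encode the structural proteins of the ribosome. They were taken from the deposited expression table by symbol: Rpl or Rps followed by a number and, in some names, the letter a or x, together with Rplp0, Rplp1, Rplp2 and Rpsa. The rule found 76 of the 18465 genes in the table, 46 of the large subunit and 30 of the small subunit, and all 76 are protein-coding in RefSeq. RNA had been sequenced from SLAM-LSK cells, a sorted bone marrow fraction (lineage marker negative, Sca-1 and c-Kit positive, CD150 positive, CD48 negative) in which haematopoietic stem cells are enriched. The groups were WT, 3 libraries from wild-type C57BL/6 mice, and MecomWT:R751W, 3 libraries from C57BL/6 mice with 1 wild-type and 1 R751W allele of Mecom, a gene for a zinc finger transcription factor of stem cells. Age, sex and treatment are not given in the labels, which call the libraries biological replicates. Whether the 3 libraries of a genotype stand for 3 mice is not stated, and p-values cover the spread between libraries, which may be technical.

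The cytosolic ribosome has a large subunit, which joins amino acids, and a small subunit, which reads the messenger RNA. Each holds 1 copy of nearly all its proteins around a core of ribosomal RNA, and the genes are transcribed in most cells at rates that keep the subunits in balance. Their messenger RNAs begin with a run of pyrimidines, the 5′ terminal oligopyrimidine or TOP motif, through which the kinase mTORC1 controls their translation. Haematopoietic stem cells are known for a low rate of protein synthesis, and loss of 1 copy of any of several of these genes causes Diamond-Blackfan anaemia in humans. The mouse genome also holds many processed pseudogenes of them, copies of the spliced messenger RNA pasted back into the genome.

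All values are TPM, a measure in which the reads of a gene are divided by its length and then scaled to a fixed sum per library. Comparisons between genes therefore depend on the length used for each gene. The 6 libraries held about 10908069 to 12753202 reads in the rows of the table, as implied by the steps between TPM values. Small and ribosomal RNA took 53.0% to 58.6% of TPM and was highest in WT replicate 2 (58.6%) and MecomWT:R751W replicate 2 (58.5%). All 7 markers of the stem cell gate were present, with a summed level of 438 to 511 TPM (WT) or 385 to 463 TPM (MecomWT:R751W). The gated-out marker Cd48 ran from 1.02 to 2.18 TPM in WT, against 2.27 to 4.10 TPM in MecomWT:R751W. The 6 listed of 7 erythroid markers summed to 302 to 375 TPM in WT and 294 to 363 TPM in MecomWT:R751W. For 3 listed of 4 megakaryocyte markers the sums were 97.2 to 114 TPM and 88.1 to 127 TPM. For 4 listed of 7 granulocyte and monocyte markers they were 71.5 to 95.7 TPM and 63.0 to 83.3 TPM. None of the 4 B cell markers is listed. The 4 listed of 7 T cell and NK cell markers summed to 7.51 to 8.75 TPM in WT, against 17.6 to 19.6 TPM in MecomWT:R751W, with Cd3e, Cd3g and Cd8a not listed. Their part in the values below was not tested.

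None of the 76 genes passed the test between the genotypes. At an adjusted p of 0.05 (limma, Benjamini-Hochberg over 16655 genes), 0 genes of either subunit were called higher and 0 lower, against 0% of all genes tested in each direction. At an unadjusted p of 0.05 the count was again 0 of 76 in both directions, where 2.74% of all genes were higher and 3.23% lower. In weighted linear models of the implied reads (limma voom), 0 members passed the adjusted threshold, where 0.144% of all genes were called higher and 0.174% lower. At an unadjusted p of 0.05 that fit had 1 small subunit gene lower (4.76% of all genes) and 0 members higher (4.43%). Rescaling over protein-coding rows sets aside the small and ribosomal RNA, the pseudogene rows and all other rows that are not protein-coding. It again gave 0 members at the adjusted threshold, where 0.0645% of 12394 genes were called higher and 0.0726% lower. At an unadjusted p of 0.05 it gave 2 large subunit genes and 2 small subunit genes lower (6.1% of all genes) and 0 higher (4.9%). The log2 fold changes of MecomWT:R751W against WT ran from -0.26 to 0.19, with a median of -0.02 in the large subunit, -0.01 in the small subunit and -0.004 over all genes. They were above 0 for 18 of 46 large subunit genes and 14 of 30 small subunit genes. The median standard error was 0.13, and the 95% intervals of all 76 genes lay within 1 log2 unit of 0. The lowest bound of any interval was -0.55 and the highest 0.53. In 70 of 76 genes the interval stayed within 0.5 log2 units of 0, and differences inside the intervals were not detectable with 3 libraries a genotype. In bulk samples of this kind, fewer cells of a type and less RNA per cell cannot be told apart.

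**Figure D1:**
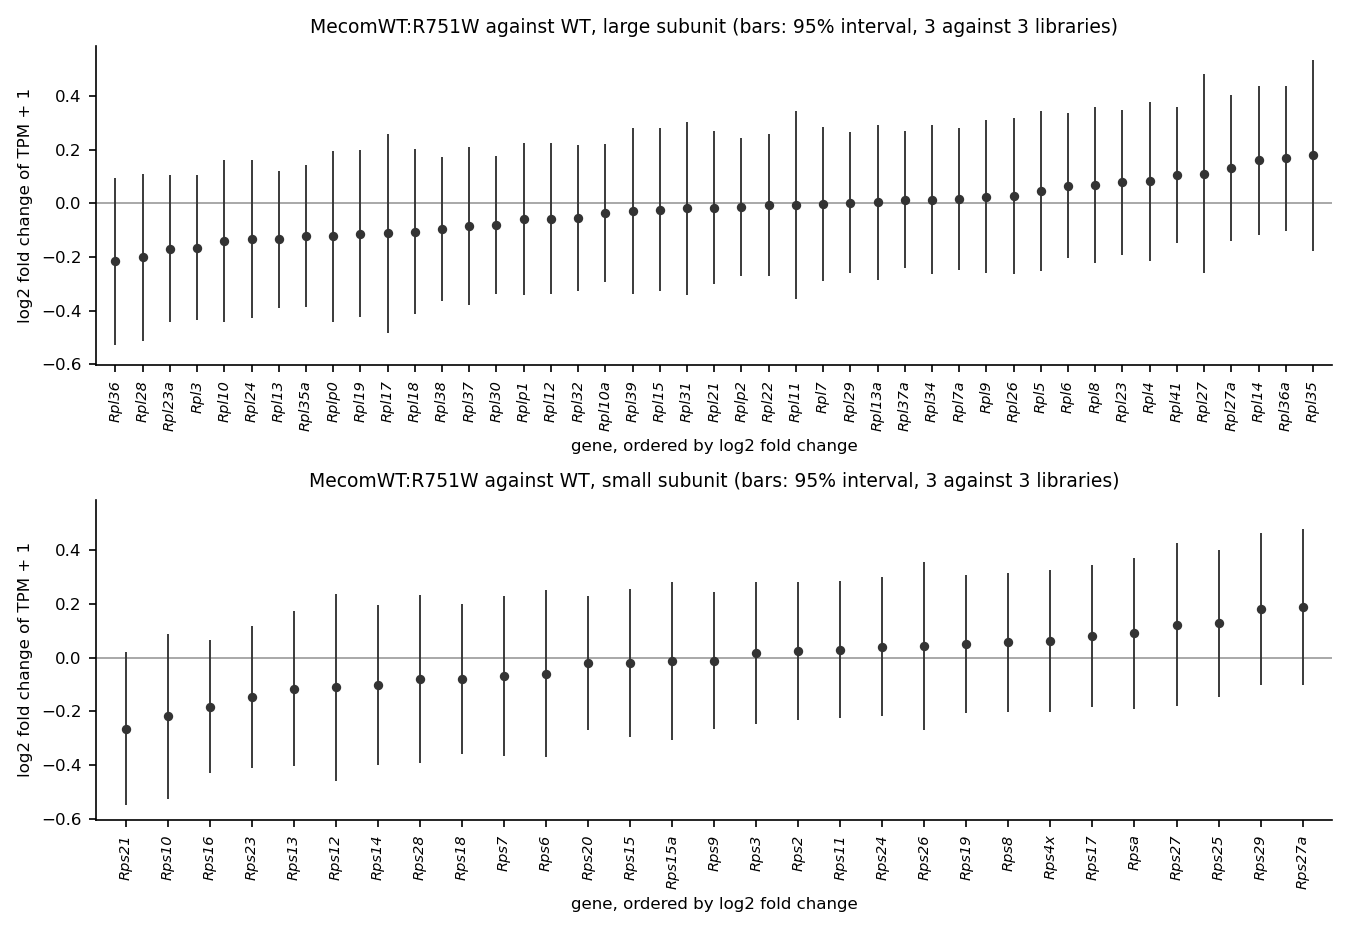
The log2 fold change of log2(TPM + 1), MecomWT:R751W against WT, is plotted for 45 large subunit genes (top) and 29 small subunit genes (bottom), with bars for the 95% interval over 3 against 3 libraries. Points run from -0.26 to 0.19, and every interval drawn includes 0.

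The summed level of the 76 genes differed less between the genotypes than between the libraries of each. The 76 genes held 1.59%, 1.37% and 1.52% of all TPM in replicates 1, 2 and 3 of WT, and 1.54%, 1.44% and 1.47% in those of MecomWT:R751W. The means were 1.49 ± 0.113% and 1.49 ± 0.0539% (SD, n = 3 each), and WT replicate 2, a library with much small and ribosomal RNA, was the lowest. Taken as a share of protein-coding TPM, WT replicates lay at 5.28%, 5.29% and 5.26% and MecomWT:R751W replicates at 5.19%, 5.53% and 5.11%. On that scale the WT libraries lay close together, and MecomWT:R751W replicates spread on both sides of them, with replicate 2 highest. The means were 5.28 ± 0.0142% and 5.28 ± 0.222%. The ratio of large to small subunit TPM was 1.88, 1.82 and 1.84 in WT and 1.87, 1.85 and 1.85 in MecomWT:R751W. Its means, 1.85 ± 0.0273 and 1.86 ± 0.0102, differed by less than the spread of the WT libraries.

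**Figure D2:**
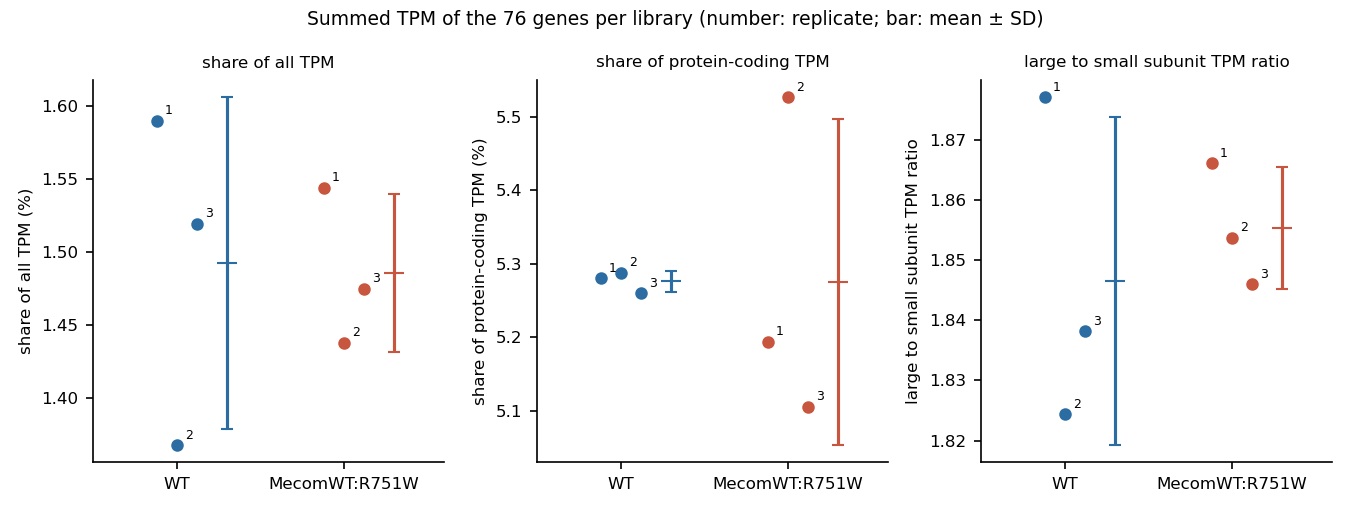
Points give, for each library, the summed level of the 76 genes as a share of all TPM (left, %), as a share of protein-coding TPM (middle, %), and the ratio of large to small subunit TPM (right), with the mean ± SD of each genotype and replicate numbers beside the points. None of the vertical axes starts at 0; the genotypes overlap in each panel, and the share of protein-coding TPM was 5.26% to 5.29% in WT and 5.11% to 5.53% in MecomWT:R751W.

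Many of the genes shared the library in which they were lowest or highest. WT replicate 2 had the lowest TPM of the 6 libraries for 35 of 76 genes and WT replicate 1 the highest for 33. Relative to protein-coding TPM, MecomWT:R751W replicate 2 was highest for 29 genes and MecomWT:R751W replicate 3 lowest for 26. The median coefficient of variation (SD as a percentage of the mean) was 9.16% in WT and 7.10% in MecomWT:R751W, and the median expected from read sampling alone was 3.55%.

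The levels of the genes spanned 117-fold in TPM, although their proteins are held in nearly equal numbers by the ribosome. The highest were Rplp1, an acidic protein of the stalk that recruits elongation factors, at 1184 TPM, Rpl8, a core protein near the peptidyl transferase centre, at 1074 TPM, and Rpl4, which lines the exit tunnel, at 1010 TPM. Rpl13a, also known as a translational repressor outside the ribosome, followed at 714 TPM. In the small subunit high levels were those of Rps3 at 477 TPM, Rps26 at 466 TPM and Rps15 at 411 TPM. The lowest were Rps28 at 10.1 TPM, Rpl11 at 11.8 TPM, Rpl31 at 14.0 TPM, Rpl17 at 22.9 TPM and Rpl19 at 24.0 TPM. The lowest small subunit genes after Rps28 were Rps12 at 33.7 TPM, Rps29 at 39.1 TPM and Rps27 at 43.2 TPM. These are means over 6 libraries. Adjacent genes in the order mostly overlapped: Rpl11, at 13.9, 11.5 and 10.05 TPM in WT and 12.7, 12.1 and 10.4 TPM in MecomWT:R751W, overlapped with Rpl31, at 12.97, 16.2 and 13.3 TPM in WT and 14.2, 12.7 and 14.9 TPM in MecomWT:R751W. The genes behind these levels had 77 (Rpl39) to 12257 (Rpl4) implied reads in a library. The gene lengths implied by the TPM values ran from 390 bp (Rps29) to 5136 bp (Rps15a). They were 468 bp for Rplp1, 862 bp for Rpl8 and 1422 bp for Rpl4. Among the lowest genes they ran from 1254 bp (Rpl31) to 2165 bp (Rpl19), with 1584 bp for Rps28. The part of these lengths in the order of the genes was not tested.

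**Figure D3:**
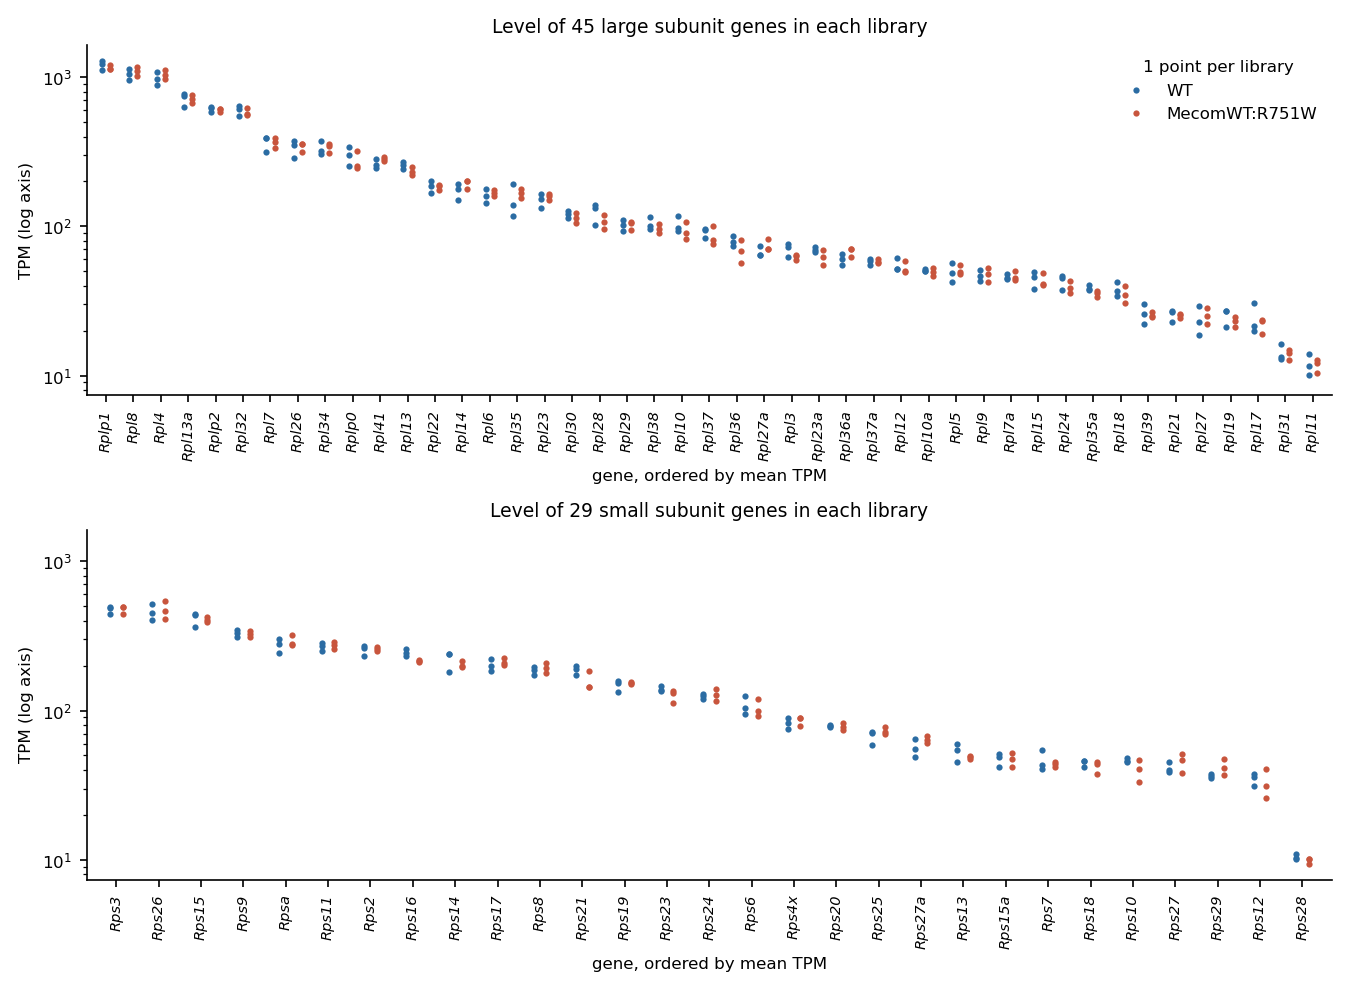
Each point is the TPM (log axis) of 1 gene in 1 library, WT in blue and MecomWT:R751W in red, for 45 large subunit genes (top) and 29 small subunit genes (bottom) ordered by mean TPM. The genes span 10.1 to 1184 TPM on average, and the 2 colours overlap at all genes drawn but Rps16, Rpl35a and Rps28.

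Most of the reads of the ribosomal protein family stood in the table under pseudogenes. Of the 3256 rows that RefSeq types as pseudogenes, 742 were copies of 1 of the 76 genes, 734 by sequence (at least 80% identity over at least 50% of the coding sequence) and 8 by symbol alone. Where both could be compared, symbol and sequence named the same gene in 205 of 208 rows. The copies held 66551 to 78421 TPM per library, 4.81 to 4.99 times the TPM of the genes themselves. In implied reads, which do not depend on the short length of a pseudogene, the copies held 3.30 to 3.45 times as many as the genes. Copies exceeded the gene's own row for 68 of 76 genes, and the median gene's own row was 10.9% of its family's TPM. The copies' summed TPM was 72863 ± 5971 in WT and 73260 ± 4000 in MecomWT:R751W (SD, n = 3 each). How the authors counted reads that align to several places was not given in the sources used here, so a gene's own row may hold fewer or more reads than the gene gave.

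Rps28, with the smallest own share of its family, and Rplp2, with a much larger one, show what these copies look like. Rps28, a small protein at the mRNA exit channel, had 10.1 TPM in its own row, 0.875% of its family, and its largest copy, Gm3511 (chr5:113767100-113767414, GRCm38), had 411 TPM at 99.0% identity. A further copy, Gm10443 (chr6:86333996-86334318), had 326 TPM at 100% identity. Bases 1 to 90 of the Rps28 coding sequence and the matching stretches, from GENCODE M21 transcripts, are shown with the base that differs in capitals; the only difference, counted from base 1 of the coding sequence, is G69A in Gm3511.
Rps28: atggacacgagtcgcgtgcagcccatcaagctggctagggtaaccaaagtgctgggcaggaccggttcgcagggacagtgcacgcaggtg
Gm3511: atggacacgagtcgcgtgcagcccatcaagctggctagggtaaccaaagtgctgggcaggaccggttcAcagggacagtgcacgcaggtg
Gm10443: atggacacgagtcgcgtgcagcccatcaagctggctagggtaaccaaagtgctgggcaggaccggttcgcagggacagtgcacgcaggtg

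Rplp2, the partner of Rplp1 in the stalk, had 608 TPM in its own row, 87.5% of its family. Its only copy, Gm8805 (chr1:65551079-65553021), had 87.2 TPM at 89.4% identity. Bases 42 to 131 of its coding sequence differ from the copy at 8 positions, written gene base, position, copy base: C87T, G97T, A99G, C101T, G106A, T111C, A122T and G124A, in capitals in the copy.
Rplp2: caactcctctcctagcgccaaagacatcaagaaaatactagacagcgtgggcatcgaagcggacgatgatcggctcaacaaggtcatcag
Gm8805: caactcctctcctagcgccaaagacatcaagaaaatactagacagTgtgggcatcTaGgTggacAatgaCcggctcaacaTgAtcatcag

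Nearly identical copies held most of this signal. The 226 copies of at least 98% identity held 71.4% of the copies' TPM with a median of 126 TPM, and the 270 of 95% to 98% held 20.4% with a median of 24.7 TPM. The 166 copies of 90% to 95% held 5.79% at a median of 7.13 TPM, and the 72 of 80% to 90% held 0.919% at a median of 4.03 TPM. Among the highest single rows were Rpsa-ps10 at 1526 TPM and Gm15772, a copy of Rpl26, at 1431 TPM. The number of copies was 48 for Rpl21, whose own row (25.4 TPM) was 1.03% of its family, 37 for Rps2 (258 TPM, 33.9%), 30 for Rpl17 (22.9 TPM, 1.42%) and 24 for Rpl23a (65.9 TPM, 2.08%). It was also high for Rpl7a, at 45 (46.1 TPM, 3.44%), and Rpl29, at 27 (102 TPM, 15.3%). The number was 0 for Rpl8. It was 1 for Rpl4 (83.0% in its own row), but also for Rpl41 (38.7%) and Rps9 (29.0%). Across the 76 genes, Spearman's rho between the number of copies and the gene's own TPM was -0.40, as a description over genes that share the libraries and the counting.

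**Figure D4:**
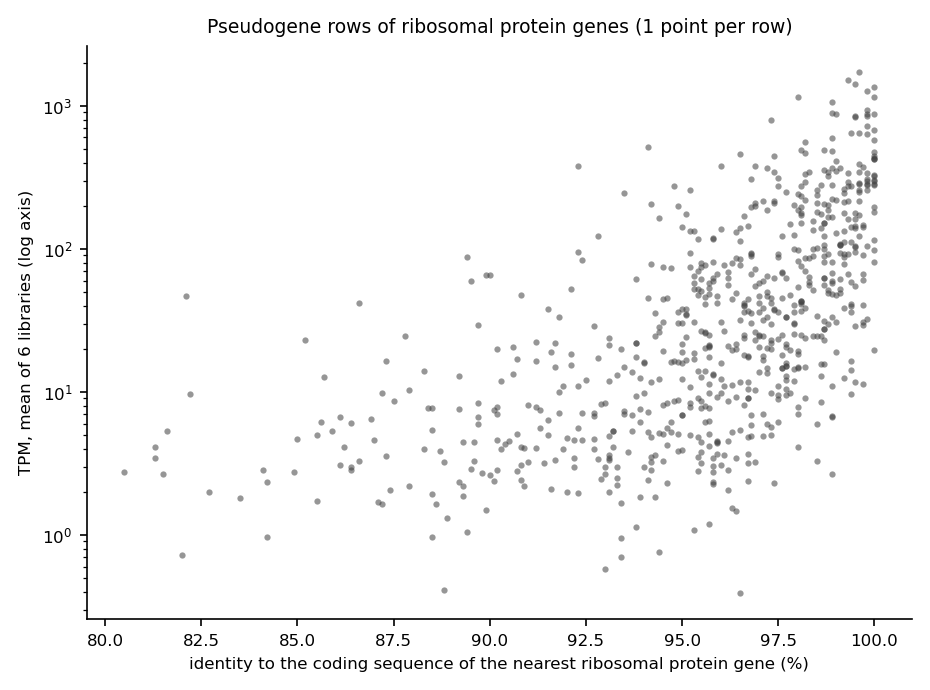
Each point is a pseudogene row matched by sequence to a ribosomal protein gene, by its identity to the coding sequence (%) and its TPM (mean of 6 libraries, log axis). TPM is higher toward 100% identity: the median is 126 TPM at 98% and above and 4.03 TPM from 80% to 90%.

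Summing each gene with its copies changed the order of the genes. The range of levels narrowed from 117-fold to 16.5-fold, from 202 TPM (Rpl37) to 3338 TPM (Rpl26), and the SD of log2 levels from 1.58 to 0.85. Rpl23a, which contacts the signal recognition particle at the tunnel exit, stood at rank 48 by its own row and at rank 3 by its family, with 3173 TPM. Rpsa, the laminin receptor protein of the small subunit, moved from rank 16 to rank 2 with 3176 TPM. Rplp1 moved from rank 1 to rank 11 and Rpl8 from rank 2 to rank 37. Spearman's rho between the orders was 0.20 over 76 genes, which again is a description. Between the genotypes, the log2 fold changes of the summed levels had medians of 0.02 in the large and 0.01 in the small subunit, and 44 of 76 were above 0. At an unadjusted p of 0.05, 0 were higher and 0 lower, against 2.71% and 3.28% of all genes in that fit. The smallest unadjusted p was 0.162, for Rpl37, with 216 ± 21.7 (WT) and 188 ± 28.1 TPM (MecomWT:R751W; SD, n = 3 each; adjusted p = 0.986, limma).

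**Figure D5:**
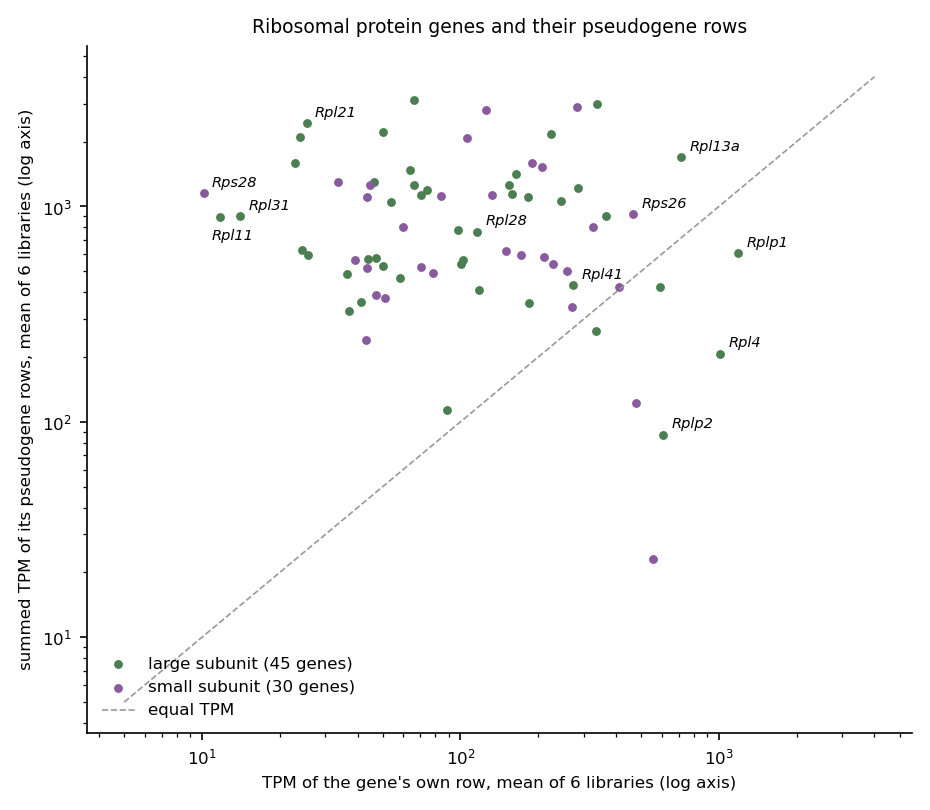
For the 75 genes with at least 1 pseudogene row, the gene's own TPM (x) is set against the summed TPM of its pseudogene rows (y), both as means of 6 libraries on log axes, with the large subunit in green and the small in purple. Points above the dashed line of equal TPM are the 68 genes with more TPM in pseudogene rows; Rplp2, Rpl4 and Rplp1 are among those below it, and Rpl8 has no pseudogene row and is not drawn.

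In the small subunit, the gene of smallest p was Rps21, which in yeast takes part in maturing the small subunit RNA. It stood at 191, 198 and 174 TPM in WT and at 143, 145 and 183 TPM in MecomWT:R751W, in the order of the replicates. Replicates 1 and 2 of MecomWT:R751W lay below every WT library, and replicate 3 lay among them. The log2 fold change was -0.26 ± 0.13 (SE; unadjusted p = 0.0664, adjusted p = 0.904, limma). Without MecomWT:R751W replicate 3 it was -0.38 with an unadjusted p of 0.027. Summed with its 3 copies it was -0.18.

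Rps16, a head protein of the small subunit near the decoding site, was at 258, 242 and 230 TPM in WT and at 211, 213 and 218 TPM in MecomWT:R751W. All WT libraries were above all MecomWT:R751W libraries, with a log2 fold change of -0.18 ± 0.11 (adjusted p = 0.977, limma) and an exact two-sided permutation p of 0.1, the smallest that 3 against 3 allow. Summed with its 4 copies the difference was -0.008. Only Rpl35a and Rps28 of the other genes had groups that did not overlap. Rpl35a, a large subunit protein, was at 40.6, 37.4 and 37.8 TPM in WT and at 33.6, 35.7 and 36.8 TPM in MecomWT:R751W. Rps28 was at 10.2, 10.3 and 10.9 TPM in WT and at 10.1, 10.1 and 9.39 TPM in MecomWT:R751W. These 3 genes, all lower in MecomWT:R751W, are 3.95% of the 76, against 4.7% of all genes tested that were lower without overlap and 4.5% that were higher, 9.19% together. The log2 fold changes of Rpl35a (-0.12) and Rps28 (-0.08) turned to 0.03 and 0.01 when the genes were summed with their copies.

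Rps10, a protein of the beak of the small subunit, was at 46.1, 45.5 and 47.9 TPM in WT and at 47.0, 33.2 and 40.4 TPM in MecomWT:R751W. Its log2 fold change of -0.22 ± 0.14 was -0.09 without MecomWT:R751W replicate 2, the low library. Rps23, which lies at the decoding centre, was at 136, 137 and 145 TPM in WT and 136, 112 and 131 TPM in MecomWT:R751W, again lowest in replicate 2. Its log2 fold change was -0.15 ± 0.12 and turned to 0.04 in the sum with its copies. On the upper side stood Rps27a, made as a fusion with ubiquitin, at 64.6, 48.8 and 55.03 TPM in WT and 63.5, 67.3 and 60.6 TPM in MecomWT:R751W (log2 fold change 0.19 ± 0.13). Its lowest library was WT replicate 2, without which the log2 fold change was 0.09. Rps29, a zinc-binding head protein, was at 36.6, 37.8 and 35.2 TPM in WT and 37.0, 47.0 and 41.2 TPM in MecomWT:R751W (0.18 ± 0.13). Rps25, needed for initiation at some internal ribosome entry sites, had a log2 fold change of 0.13. That of Rps27, a zinc finger protein, was 0.12 and turned to -0.03 with its pseudogene rows. Overlap of the genotypes was seen in each of these 6 genes.

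In the large subunit the genes of smallest p also stayed above the threshold. Rpl36 was at 85.8, 74.1 and 78.8 TPM in WT and 81.3, 56.9 and 68.9 TPM in MecomWT:R751W, a log2 fold change of -0.22 ± 0.14 that was -0.09 without MecomWT:R751W replicate 2. Rpl28 was at 138, 102 and 133 TPM in WT and 119, 96.1 and 107 TPM in MecomWT:R751W (-0.20 ± 0.14), and Rpl3, a protein close to the peptidyl transferase centre, at 75.6, 62.2 and 72.9 TPM in WT and 59.9, 63.2 and 63.9 TPM in MecomWT:R751W (-0.16 ± 0.12). Summed with their copies these 2 genes stood at 0.04 and 0.02. Rpl23a was at 72.8, 67.2 and 69.0 TPM in WT and 69.1, 62.5 and 54.8 TPM in MecomWT:R751W (-0.17 ± 0.13). Higher values were found for Rpl36a, which sits at the exit site of transfer RNA, at 54.8, 60.7 and 65.0 TPM in WT and 70.3, 70.6 and 62.3 TPM in MecomWT:R751W (0.17 ± 0.12). Rpl14 had a log2 fold change of 0.16 ± 0.13 and Rpl27a of 0.13 ± 0.13. Rpl35, a tunnel exit protein, was at 192, 117 and 139 TPM in WT and 178, 154 and 167 TPM in MecomWT:R751W, with the MecomWT:R751W libraries inside the WT range. Its log2 fold change of 0.18 ± 0.16 was 0.37 without WT replicate 1 and 0.02 without WT replicate 2.

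The genes of largest spread within 1 genotype were picked in each subunit apart. Rpl27 of the large subunit was not picked, though its 23.15% in WT exceeded the values of Rps12 and Rps7 below. Rps12, of the beak, was at 40.3, 26.1 and 31.3 TPM in MecomWT:R751W, a coefficient of variation of 22.1%. Rpl35 (25.7%) and Rpl17 (24.4%) varied most in WT, where Rpl17 was at 21.3, 19.9 and 30.7 TPM. Rps7, which protects p53 by binding Mdm2, was at 54.5, 40.8 and 43.0 TPM in WT (16.0%) and 41.8, 44.0 and 45.0 TPM in MecomWT:R751W.

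Sorted by role, most structures of the ribosome held genes on both sides of 0, and 0 members of any were called. In the 5S particle, whose proteins Rpl5 and Rpl11 bind Mdm2 when ribosome assembly fails, Rpl5 was at 57.1, 42.4 and 48.3 TPM in WT and 47.9, 54.7 and 49.4 TPM in MecomWT:R751W (log2 fold change 0.05 ± 0.14). Rpl11, with the values above, had a log2 fold change of -0.005 ± 0.16. The signs of both turned when single libraries were left out. All 4 genes of the P stalk had log2 fold changes below 0, from -0.12 (Rplp0, the stalk base, at 338, 302 and 254 TPM in WT and 254, 246 and 321 TPM in MecomWT:R751W) to -0.01 (Rplp2), each smaller than its standard error. The sign of Rplp0 turned with array weights, and that of Rplp2 without WT replicate 1 or MecomWT:R751W replicate 3. Of the 8 genes around the exit tunnel 3 were above 0 and 5 below. Of the 3 at the mRNA entry (Rps2, Rps3 and Rps9) 2 were above 0 and 1 below, and of the 5 at the mRNA exit 2 were above and 3 below. In the decoding centre and head, 1 of 5 was above 0 (Rps29), and in the beak 1 of 3 (Rps27a). Rpsa, at the mRNA exit, was at 304, 243 and 278 TPM in WT and 321, 281 and 275 TPM in MecomWT:R751W, with the groups overlapping.

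The 18 genes of the family mutated in human Diamond-Blackfan anaemia that were looked at had a median log2 fold change of 0.04, 10 above 0 and 8 below, and none was called. Rps19, the gene most often mutated in that disease, was at 158, 133 and 153 TPM in WT and 152, 152 and 155 TPM in MecomWT:R751W (0.05 ± 0.12). That difference was -0.02 without WT replicate 2 and -0.005 in the sum with its copies. The lowest and the highest levels of the 18 were those of Rps28 (10.1 TPM) and Rps26 (466 TPM). The 4 X-linked genes, Rpl10, Rpl36a, Rpl39 and Rps4x, had 2 log2 fold changes above 0 and 2 below. Chromosome 7 held 14 of the 76 genes, the most of any, and 29 genes held 58 snoRNA genes within their span, up to 5 in Rpl4. Whether reads of these snoRNAs entered the host genes' rows was not given in the sources used here.

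RefSeq promoters (GRCm38.p6, 250 bases before to 50 after the start) were matched for 56 of the 76 genes. As the TOP motif lies at the start of the messenger RNA, the motif CTCTTTC was searched on the gene's strand in the 60 bases from 40 before to 20 after each listed start. It stood there in 7 of 56 ribosomal protein genes (12.5%) and in 97 of 10093 other genes (0.961%). In all 300 bases it stood in 23.2% and 4.42%. The sequence CGGAAG, part of sites of ETS family factors, stood on either strand of the 300 bases in 69.6% of the 56 and 34.9% of the others, and TATAAA in 10.7% and 8.89%. A match describes the letters and is no evidence of a site. CTCTTTC is 1 fixed run of pyrimidines, and other runs were not searched. Its counts are therefore not the share of genes with a TOP motif. The 60 bases of the 7 genes that carry CTCTTTC (in capitals) show where it lies. Counted from the listed start shown, its first base is base 1 in Rpl35, Rpl28 and Rpl35a, base 2 in Rpl18 and base 6 in Rps26. From a further listed start of Rpl35a it begins at -32. The RefSeq spans of Rpl35a and Rpl18 begin upstream of the starts shown. In Rps15a it begins at -13, before the annotated start, and so lies outside the annotated messenger RNA. In Rpl5 it begins at -20 from the listed start shown, but at chr5:107900508, the first base of the RefSeq gene. In the order shown, the regions are chr2:39005112-39005171 (minus), chr7:4792925-4792984 (plus), chr16:33056442-33056501 (plus), chr7:45718031-45718090 (plus), chr10:128626487-128626546 (minus), chr7:118116128-118116187 (minus) and chr5:107900488-107900547 (plus).
Rpl35: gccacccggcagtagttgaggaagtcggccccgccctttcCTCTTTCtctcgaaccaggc
Rpl28: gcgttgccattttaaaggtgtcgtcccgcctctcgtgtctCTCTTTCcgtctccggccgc
Rpl35a: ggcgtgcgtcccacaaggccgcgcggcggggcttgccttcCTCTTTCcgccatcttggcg
Rpl18: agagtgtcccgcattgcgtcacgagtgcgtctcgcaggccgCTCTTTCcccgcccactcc
Rps26: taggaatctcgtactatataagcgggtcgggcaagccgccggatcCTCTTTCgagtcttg
Rps15a: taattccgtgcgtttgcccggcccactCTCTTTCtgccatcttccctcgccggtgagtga
Rpl5: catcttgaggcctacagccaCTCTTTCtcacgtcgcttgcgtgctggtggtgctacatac

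The wider translation machinery showed 0 calls at an adjusted p of 0.05 as well. Ribosomal proteins whose symbols fall outside the pattern included Rps3a1 (WT 244 ± 36.5 TPM, MecomWT:R751W 256 ± 21.0 TPM; SD, n = 3 each), Rack1 (345 ± 21.6 and 330 ± 25.1 TPM) and Fau (76.4 ± 3.77 and 74.3 ± 2.39 TPM). Among 6 listed of 9 paralogs of the family, Rps4l was at 5.45, 5.76 and 4.76 TPM in WT and 3.98, 2.00 and 3.35 TPM in MecomWT:R751W, with no overlap. Its log2 fold change of -0.65 ± 0.21 had an unadjusted p of 0.00849 and an adjusted p of 0.591 (limma). Rps27rt, a retrogene of Rps27, was at 389, 315 and 339 TPM in WT and 299, 277 and 286 TPM in MecomWT:R751W, again with no overlap. Its log2 fold change was -0.27 ± 0.12 (adjusted p = 0.840, limma). Its level was several times that of Rps27 itself in all libraries. Of all genes tested, 9.19% had groups that did not overlap. Rps27rt was not among the pseudogene rows summed with Rps27, a sum with a mean of 284 TPM. Rpl36al (0.12) and Rps27l (0.17) had log2 fold changes above 0.

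Of 17 translation factor and related genes with TOP messenger RNAs, 9 were above 0 and 8 below, with Npm1 (119 ± 13.7 and 138 ± 9.10 TPM) and Btf3 (40.8 ± 6.07 and 35.2 ± 1.72 TPM) among those of smallest p. Of 41 ribosome biogenesis factors 19 were above 0 and 22 below, with a median of -0.01. Nop10, of the H/ACA particles that modify ribosomal RNA, had a WT mean of 45.7 ± 5.93 TPM and a MecomWT:R751W mean of 36.8 ± 3.91 TPM (-0.30 ± 0.14), and Wdr12, of the large subunit assembly complex with Pes1 and Bop1, at 11.5 ± 0.587 and 13.4 ± 1.77 TPM (0.20 ± 0.15). Among 12 listed of 15 genes of the RNA polymerase I apparatus, Polr1c, a subunit shared with RNA polymerase III, was at 22.1, 21.6 and 20.8 TPM in WT and 25.4, 26.2 and 29.6 TPM in MecomWT:R751W. Its groups did not overlap, and the log2 fold change was 0.32 ± 0.13 (unadjusted p = 0.031, adjusted p = 0.773, limma). Of 22 genes that control TOP messenger RNAs and mTORC1, 13 were above 0 and 9 below. Mycn, a transcription factor that drives ribosome production, had means of 105 ± 19.2 TPM (WT) and 121 ± 9.52 TPM (MecomWT:R751W; log2 fold change 0.21 ± 0.14).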

How the data were processed

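The authors deposited 1 table of TPM with 1 column per library. The authors named the build mm10 and the tool DESeq2, with no role, per the submitters' processing notes. The aligner, counting tool, strand setting, annotation and treatment of reads with several alignments were not given in the sources used here. Per the labels' protocols, library kits were listed by input, and the one used is not stated.

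Whole reads were implied from the steps between TPM values within a tolerance of 0.001; implied lengths lay within 1 bp of annotated lengths for 93.3% of 403 short RNA rows. Genes whose mean reached 1 TPM were fitted on log2(TPM + 1) with limma 3.58.1 under R 4.3.3, using its intensity trend, genotype as the only term, two-sided p-values adjusted by the Benjamini-Hochberg method over all 16655 genes and a threshold of 0.05. Fold changes are on the log2(TPM + 1) scale, which understates changes of low genes. The fit was tested on simulated data. Pseudogene rows, placed by position on GENCODE M21 transcripts for 2875 of 3256, were aligned to coding sequences with blastn 2.17.0. Sums were not tested. The labels do not say whether replicate numbers pair the samples, and the groups were compared unpaired. Members, gene lists and tests were chosen with earlier results of these data known. Named genes were, per subunit, the 4 of smallest p in each direction, the 4 highest and 4 lowest levels, the 3 of largest spread and those without overlap, with members of role lists and up to 2 per direction of other lists; values of some genes that this rule names are not reported here, though counts and sums include them. Alternatives varied pseudocount, filter, scaling, variance estimate, weights, the replicate block and single libraries. Tables and figures were made with Python 3.11.15, pandas 2.3.3 and matplotlib 3.10.9.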

Additional observations from a re-analysis of the deposited data

How the results depend on the processing

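Under 21 alternative settings, 0 members passed an adjusted p of 0.05, the smallest being 0.390. Over all genes the adjusted calls were 0 higher and 0 lower as reported, 8 and 9 of 12394 with rescaling over protein-coding rows, 40 and 92 of 11394 with protein-coding rows alone, 24 and 29 with voom on implied reads, and at most 6 higher and 9 lower in any other setting. At an unadjusted p of 0.05, against 0 members in each class as reported, rescaling over protein-coding rows had 2 large and 2 small subunit genes lower (6.1% of all genes), leaving out small and ribosomal RNA 2 and 3 (4.94%), and the replicate block 2 large subunit genes (5.32%). Quantile normalization (4.34%), protein-coding rows alone (4.67%) and voom (4.76%) each had 1 small subunit gene lower. Leaving out a library gave 0 to 1 genes per class: 1 large subunit gene was higher without WT replicate 1 (2.95% of all genes), 1 was lower without WT replicate 2 (4.16%) or MecomWT:R751W replicate 1 (4.07%), and 1 small subunit gene was lower without MecomWT:R751W replicate 3 (3.52%). The labels do not say whether the replicate numbers pair the samples. Same-numbered libraries correlated at 0.140, 0.089 and 0.083 in their deviations, against -0.086 to 0.005 for differently numbered ones. Each library correlated best with its own number, but the deviations of a gene sum to 0 over the 3 libraries of a genotype. Positive values for some pairs therefore bring negative ones for others, and the correlations cannot decide whether the samples are paired. The replicate block gave 0 adjusted calls.

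The log2 ratio of large to small subunit TPM between genotypes, 0.00681 as reported, was -0.0112 from means of log2(TPM + 1). Signs were not stable. Of the 76 genes, 24 turned when summed with their pseudogene rows, an alternative chosen after seeing the data, 9 to 16 when 1 library was left out (41 in at least 1 case), and 0 to 8 in the other settings. Among genes whose log2 fold changes were followed, the sum with pseudogene rows turned Rpl28 (0.037), Rpl3 (0.0216), Rpl35a (0.0284), Rpl11 (0.0229), Rps19 (-0.0051), Rps23 (0.0423), Rps27 (-0.0343) and Rps28 (0.0084). Array weights turned Tpt1 (0.0082), Rplp0 (0.0076) and Rpl11 (0.0584), which also turned with quantile normalization (0.0021) and median centring (0.0079). Leaving out each library gave ranges across 0 for Rpl5 (-0.0542 to 0.1561), Rpl11 (-0.1069 to 0.1107), Rps19 (-0.0244 to 0.1017), Rplp2 (-0.0432 to 0.0102), Fau (-0.0655 to 0.0002), Rack1 (-0.1091 to 0.0011) and Rps3a1 (-0.0362 to 0.1806). The cause was not tested. The median of all genes stayed between -0.06 and 0.05. The 3 libraries per genotype limit the size of difference that could be seen, and the unknown handling of reads shared with pseudogenes limits the levels of the 75 genes that have pseudogene rows.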
